A study of Mus musculus with 7 samples.

Results

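The genes described here are 10 mouse genes of histone H3 lysine 9 (H3K9) methylation and heterochromatin, chosen by name out of 55341 annotated genes. They are the H3K9 methyltransferase genes Setdb1, Ehmt1, Ehmt2, Suv39h1 and Suv39h2, the corepressor gene Trim28, the heterochromatin protein 1 (HP1) genes Cbx1, Cbx3 and Cbx5, and the remodeller gene Atrx. The study pulled Ezh2, the methyltransferase of the Polycomb complex PRC2, out of lysed nuclei of LIF-cultured mouse embryonic stem cells, and sequenced the RNA that came with it (RIP-seq). The labels give 1 Ezh2 library from Ezh2-null cells of strain M.musculus, 5 Ezh2 libraries from cells of strain 129X(M.castaneusX129) with no mutation named, of which 1 is a technical replicate and 2 are deeper runs, of 2 lanes each, of samples also sequenced in the others, and 1 library made with normal rabbit IgG from cells of that strain. The values come from 1 deposited table of read sequences with their counts, which holds 34072479 reads. Its name carries the tag WT, but nothing in the labels says which of the 7 libraries the reads came from. No value below is therefore an enrichment over a control, and there are no replicates.

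H3K9 methylation marks silent chromatin. Setdb1, brought to DNA by Trim28 and KRAB zinc finger proteins, silences endogenous retroviruses in embryonic stem cells. Ehmt1 and Ehmt2 form a dimer that methylates H3K9 in euchromatin, and Suv39h1 and Suv39h2 act mainly at pericentromeric repeats. The HP1 proteins bind methylated H3K9, and Atrx works with Daxx to place histone H3.3 at repeats and telomeres.

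In several of these mRNAs, Cbx1 and Cbx5 most of all, the reads were heaped on short stretches of coding sequence. The stretches below hold the coding start position with the most reads in each of 8 of the genes. These positions held from 4.21% of a gene's sense reads in Atrx to 32.5% in Trim28. Cbx3 and Suv39h2, with 5 and 8 coding reads, are left out. Each read is complementary to its RNA, and a start position is the most downstream RNA base that a read matched. In each line the first 34 bases end at the start position, the next 6 are the bases left out of matching, and the capitals mark bases 7 to 9 downstream of the start, which lie beyond the read. Sequences are from the GENCODE M21 transcripts, coordinates are GRCm38, and where a stretch crosses an exon junction the coordinates take in the intron.
Cbx1, exon 2, chr11:96800812-96800857, plus strand, 1201 reads: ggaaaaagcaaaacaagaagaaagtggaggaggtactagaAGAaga
Cbx5, exon 3, chr15:103205596-103205641, minus strand, 464 reads: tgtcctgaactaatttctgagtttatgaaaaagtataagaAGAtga
Atrx, exon 9, chrX:105875121-105875166, minus strand, 239 reads: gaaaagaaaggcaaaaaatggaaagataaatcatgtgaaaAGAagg
Trim28, exons 3 and 4, chr7:13025753-13027638, plus strand, 103 reads: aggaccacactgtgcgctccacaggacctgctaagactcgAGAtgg
Ehmt1, exons 18 and 19, chr2:24806365-24813568, minus strand, 44 reads: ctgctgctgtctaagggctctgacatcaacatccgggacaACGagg
Suv39h1, exons 2 and 3, chrX:8071250-8072367, minus strand, 31 reads: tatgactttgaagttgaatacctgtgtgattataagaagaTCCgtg
Setdb1, exons 2 and 3, chr3:95354671-95355956, minus strand, 28 reads: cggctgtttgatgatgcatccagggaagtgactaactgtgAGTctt
Ehmt2, exons 6 and 7, chr17:34903469-34905164, plus strand, 18 reads: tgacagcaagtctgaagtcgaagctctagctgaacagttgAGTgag
The stretches of Cbx1, Cbx5, Atrx and Trim28 have AGA at the marked bases, and the other 4 do not.

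The 10 genes had 18900 reads in RNA-sense orientation, or 0.322% of those of all nuclear genes. Of these, 92.9% belonged to Cbx1, Atrx and Cbx5, while the 5 methyltransferase genes and Trim28 had 1008 reads together. At least 50 sense reads were found for 9 of the 10 genes. The background for that count was 12.6% of all annotated genes and 29.1% of the 21910 nuclear protein-coding genes. Levels are given in RPKM, the sense reads per kb of exonic length for every 1000000 reads searched, with exact Poisson 95% intervals that cover counting error only, since copies made by PCR cannot be told from separate molecules. The median level was 1.52 RPKM over the 10 genes, with no minimum of reads. It was 0.0861 RPKM over all 21910 nuclear coding genes and 0.975 RPKM over the 6384 of them with at least 50 sense reads. The median of the 10 genes was 5.26 RPKM with reads of several genes counted for each, and 2.28 RPKM with each distinct sequence counted once and scaled to the distinct sequences searched.

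**Figure D1:**
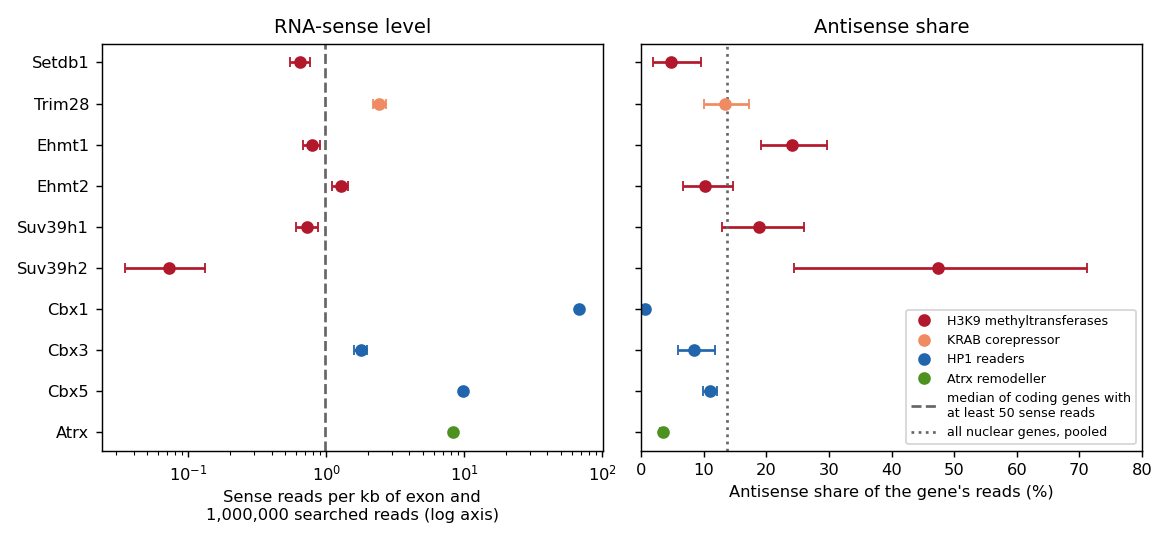
Left, RNA-sense level of each gene (RPKM, log axis) with its Poisson 95% interval. Right, antisense share of its reads (%) with its Clopper-Pearson 95% interval. Cbx1 stands at 67.5 RPKM, 92.65 times the level of Suv39h1, and has the smallest antisense share of the 10 genes, 0.623%.

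Among the methyltransferase genes, Ehmt2, which encodes G9a, had 219 sense reads (191 to 250.0) at 49 start positions, a level of 1.265 RPKM (1.10 to 1.445). Ehmt1, which encodes its partner GLP, had 201 sense reads (174.2 to 230.8) at 40 positions, a level of 0.786 RPKM (0.681 to 0.902). Suv39h1 had 121 sense reads (100.4 to 144.6) at 12 positions, a level of 0.728 RPKM (0.604 to 0.870). Ehmt1, Suv39h1 and Setdb1 had overlapping intervals and were not separated by their counting error. Setdb1 had 140 sense reads (117.8 to 165.2) at 17 positions, a level of 0.648 RPKM (0.545 to 0.765). Suv39h2, the relative of Suv39h1, had 10 sense reads (4.795 to 18.39), of which 8 lay at 1 position, a level of 0.0719 RPKM. It was the lowest of the 10 genes and ranked 11465 of the 21910 nuclear coding genes. Setdb1 and Ehmt2 also had sense reads that matched more than 10 other genes equally well and were not counted, 4379 for Setdb1 and 409 for Ehmt2.

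Trim28, the corepressor that joins KRAB zinc finger proteins to Setdb1, had 317 sense reads (283.1 to 353.9) at 44 positions. Its level of 2.42 RPKM (2.16 to 2.70) lay above the levels of all 5 methyltransferase genes, and the counting intervals did not overlap. That order holds for reads of 1 gene only. With reads of several genes counted for each, Setdb1 had 4565 sense reads, Ehmt2 738 and Trim28 319, which put Setdb1 and Ehmt2 above Trim28 per length. One position in exon 4 of 17 held 32.5% of its reads.

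The HP1 genes differed widely from each other. Cbx1, which encodes HP1β, had 9090 sense reads (8904 to 9279) at 177 positions. At 67.5 RPKM (66.1 to 68.9) it ranked 61 of the nuclear coding genes. Cbx5, which encodes HP1α, had 2783 sense reads (2681 to 2888) at 155 positions, 9.80 RPKM (9.44 to 10.17) and rank 391. Cbx3, which encodes HP1γ, had 335 sense reads (300.1 to 372.9) at 35 positions, 1.77 RPKM (1.59 to 1.97) and rank 1981. The count of Cbx3 is uncertain, because only 34 of 519 windows of 34 bases in its coding sequence (6.55%) match no other gene. A further 843 sense reads matched Cbx3 and at most 10 other genes equally well. Of these, 842 also matched Gm49164, 765 matched each of the processed pseudogenes Cbx3-ps6 and Cbx3-ps7, 537 matched Gm7721 and 520 matched Cbx3-ps8. For Cbx1 and Cbx5 the matchable share of coding windows was 95.4% and 97.2%.

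Atrx had 5684 sense reads (5537 to 5834) at 433 start positions, the most positions of the 10 genes. Its level of 8.29 RPKM (8.07 to 8.504) ranked 462. That lay below the level of Cbx5, with counting intervals that did not overlap, but the order depends on the length used. The exonic length merges all isoforms and is 21757 bases for Atrx and 9006 for Cbx5. The reference transcripts have 10275 and 8803 bases, with 5006 and 2783 sense reads on them, and per length of these Atrx lay above Cbx5. No Atrx position held more than 4.21% of its reads.

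Several genes had most of their reads in 1 exon. In Cbx1, exon 2 of 6, which is 177 bases long and holds the start codon, took 7373 of the reads, or 81.1%. A window of 50 bases there (chr11:96800800-96800849) held 6152 reads, or 67.7%, at 46 start positions. In Cbx5, exon 3 of 5, with 2.12% of the length of the transcript Cbx5-202, took 61.1% of the reads, and 1 window of 50 bases (chr15:103205571-103205620) held 1552, or 55.8%. In Atrx, exon 9 of 35, which is 3014 bases long and makes up 29.3% of the transcript Atrx-202, took 3458 reads, or 60.8%, and its highest window held 18.1% of the gene's reads. Exon 4 of Trim28 took 53.6% of the reads with 4.19% of the length, exon 7 of Ehmt2 took 54.8% with 3.43%, and exon 8 of Ehmt1 took 41.8% with 2.03%. In Suv39h1, exon 6 took 53.7% of the reads with 55.8% of the length. Its exon 2 took 28.1% with 5.26% of the length, and 31 of these 34 reads lay at 1 position. These shares are of all sense reads of a gene, including reads found only on other isoforms. Exon 6 of Cbx3 took 29.25% of all its sense reads. Of the 103 reads on the transcript Cbx3-201 it took 95.15%, with 64.85% of the length. Few coding reads of Cbx3 could be assigned to 1 gene, so these shares of its exon 6 are uncertain. The highest exon of Setdb1, exon 7 of 22, took 25.7% of all sense reads and 36.7% of those on its transcript, with 4.34% of the length. The share of a gene's reads at its highest single position had a median of 18.3% over the 10 genes and of 21.6% over nuclear coding genes with at least 50 sense reads, where the quartiles were 14.85% and 32.3%. The 10 genes include Suv39h2, which lies below that minimum.

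**Figure D2:**
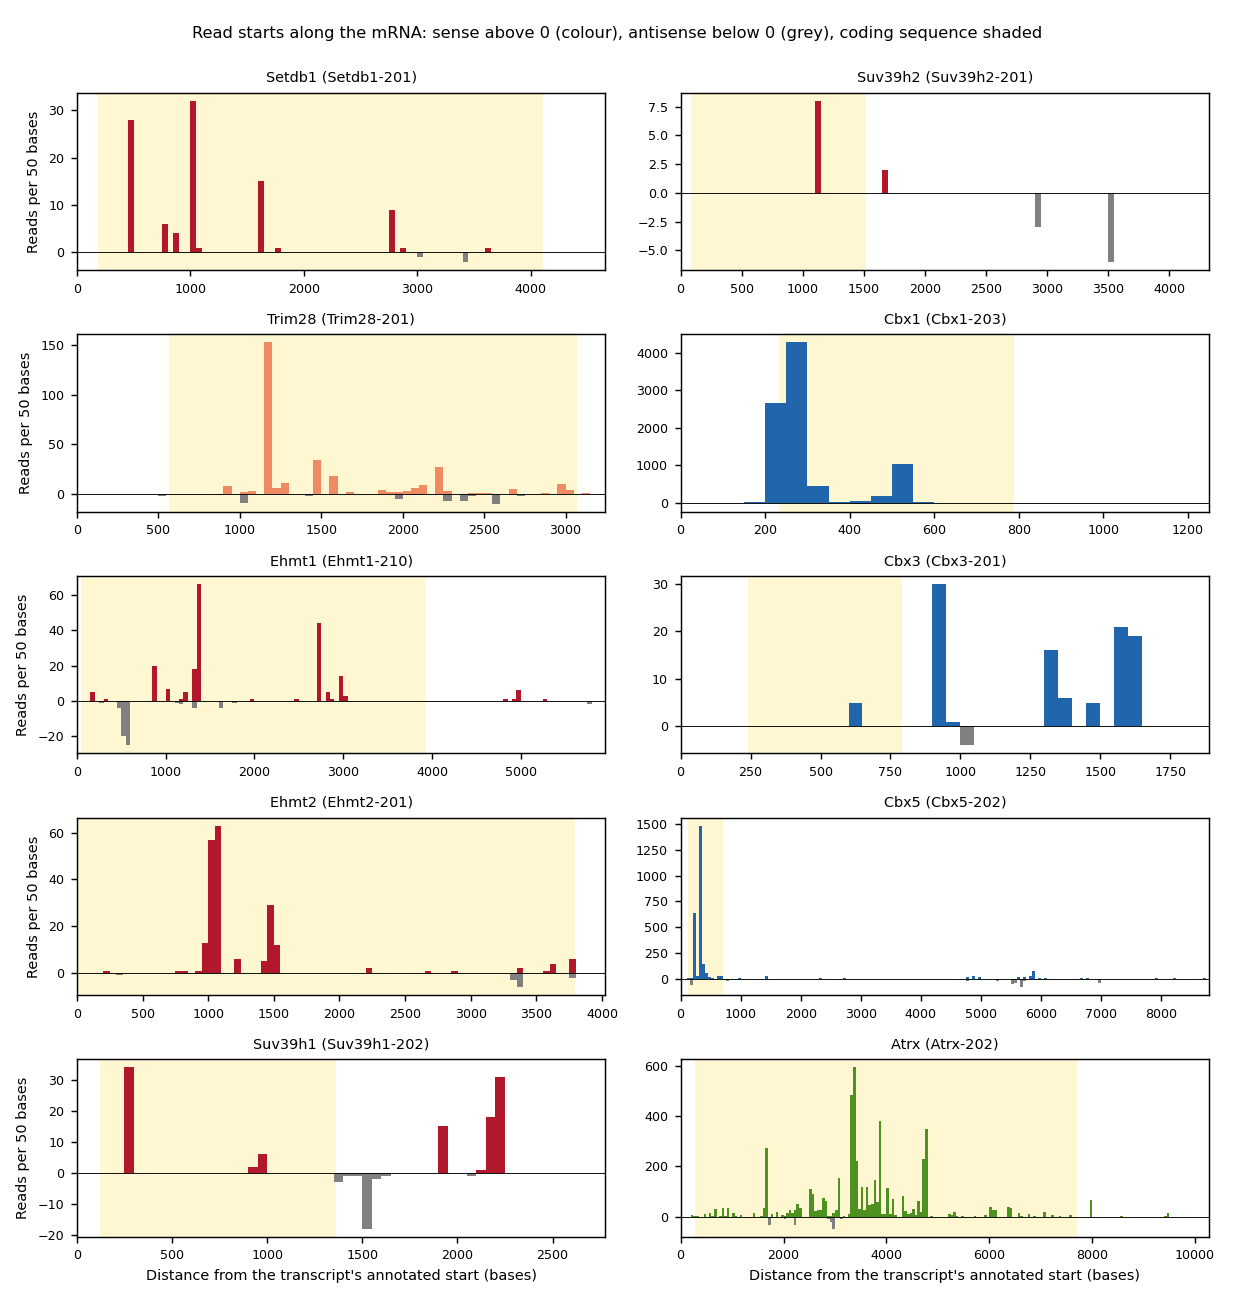
Number of read starts per 50 bases along the reference transcript of each gene, against the distance from its annotated start in bases, with sense reads above 0 in colour, antisense reads below 0 in grey and the coding sequence shaded. Reads found only on other isoforms are not drawn. Cbx1 has its main heap at the start of the coding sequence, Cbx5 in exon 3, at coding bases 196 to 245 of 576, and Atrx in exon 9, and the sense reads of Suv39h1 and Cbx3 lie largely downstream of it.

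The highest positions differed in how varied their reads were. The 1201 reads at the highest Cbx1 position comprised 404 distinct read sequences with 211 different sets of 6 leading bases, the commonest of which made up 16.6% of the reads. At the highest Atrx position 38 sets were found among 239 reads, at that of Cbx5 26 sets among 464 reads, and at that of Trim28 18 sets among 103 reads. The highest positions of Setdb1 with 28 reads, Cbx3 with 45 and Suv39h2 with 8 had 1 set each. The commonest set made up 96.8% of the reads at the highest Suv39h1 position, 93.2% at that of Ehmt1 and 50% at that of Ehmt2. Over the whole gene, the sense reads comprised 3166 distinct sequences in Cbx1, 1428 in Atrx, 532 in Cbx5 and 120 in Trim28. Ehmt2 had 96, Ehmt1 78, Cbx3 68, Setdb1 35, Suv39h1 28 and Suv39h2 2. Over all sense reads of the 10 genes, the first read base differed from the transcript in 36.3% of reads and the sixth in 6.66%, against 0.334% of the later bases. The matching allowed at most 2 mismatches in the later bases, which limits their rate, and did not use the leading bases.

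A read was given to the part of the transcript that holds its start position, even where its other bases lay in another part. Coding sequence held 84.75% of the sense reads of the 10 genes (Clopper-Pearson 95% interval 84.23 to 85.26, counting error only), against 79.0% over all nuclear coding genes. With each start position counted once, the share of the 10 genes was 77.8%, and no background is given for that count. Genes lay on both sides of that background. Trim28 with 99.7%, Ehmt1 with 95.5%, Ehmt2 with 94.1%, Cbx5 with 87.75%, Atrx with 86.4% and Cbx1 with 85.8% lay above it. Suv39h2 had 80%, or 8 of 10 reads, with an interval of 44.39 to 97.48 that takes in the background. Setdb1 with 70% and Suv39h1 with 34.7% lay below it. Cbx3 had 1.49%, which cannot be set against the background, since 6.55% of its coding windows could be assigned to 1 gene and 843 shared reads were left out. In Cbx5 the coding sequence makes up 6.54% of the transcript length and the downstream untranslated region nearly all the rest, which held 11.9% of the reads. Cbx1 had 9.64% of its reads upstream of the coding sequence, against 1.23% over all nuclear coding genes. Most of these belonged to the heap at the start codon, which has start positions on both sides of it. Suv39h1 had 53.7% of its reads in the downstream untranslated region.

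**Figure D3:**
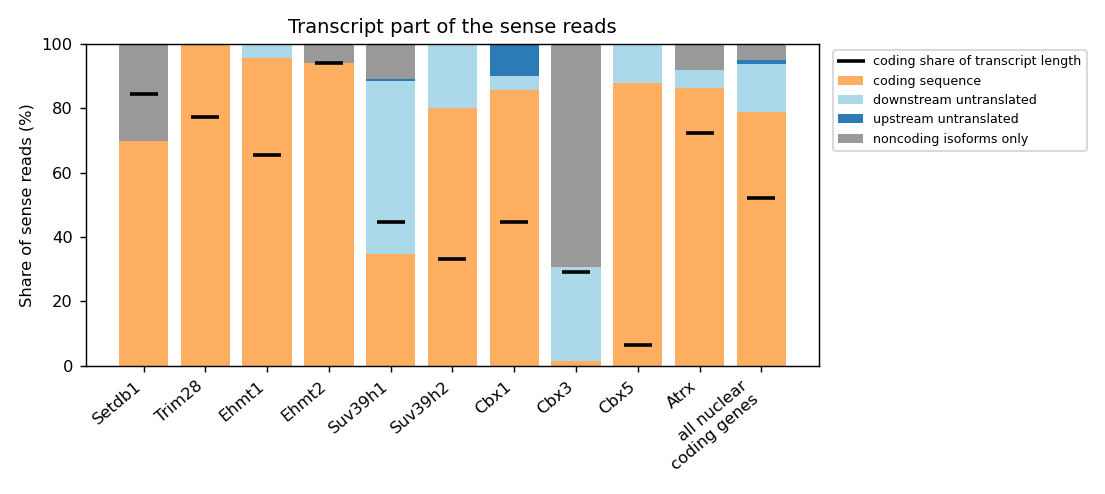
Share of sense reads (%) in each part of the transcript for the 10 genes and, at the right, all nuclear coding genes. Black bars give the coding share of the transcript length, which is 52.1% over nuclear coding genes with at least 50 sense reads. Coding sequence takes most reads in 8 of the 10 genes, all except Suv39h1 and Cbx3, and few coding reads of Cbx3 could be assigned to 1 gene.

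Some reads lay in sequence that is annotated only in noncoding isoforms. Such reads made up 4.22% of the sense reads of the 10 genes and 4.87% of those of all nuclear coding genes. Cbx3 had 232, or 69.25% of its total, all on retained intron isoforms. That total leaves out 843 sense reads shared with at most 10 other genes, so the share of Cbx3 is uncertain. Atrx had 457 on retained intron isoforms, 8.04% of its total, and Setdb1 had 42, or 30%. Cbx1 had 32 on a nonsense-mediated decay isoform and 9 on a retained intron isoform. Introns outside these isoforms were not searched.

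Reads that cross an exon junction match spliced RNA. They made up 4.75% of the sense reads of the 10 genes (4.45 to 5.06) and 21.2% of those of all nuclear coding genes. By start positions, taking those at which all reads crossed a junction, the shares were 8.61% and 11.95%. Trim28 had 165 junction reads, or 52.1% (46.4 to 57.7, counting error only), where 16.4% of the windows along its transcript cross a junction. Its highest position, with 103 sense reads, lies in exon 4, and the stretch shown for it reaches back into exon 3. Ehmt2 had 82, or 37.4%, against 21.5% of windows, and Setdb1 had 48, or 34.3%, against 14.9%. In Ehmt2 and Setdb1 the stretches of the highest positions, with 18 and 28 reads, also reach back across a junction. Heaps at single junctions thus weigh on the shares of Trim28, Ehmt2 and Setdb1. These shares do not show an excess of spliced reads along the whole gene. Ehmt1 had 36 junction reads, or 17.9%, against 14.5% of windows. The most read genes lay below the share of their windows. Cbx1 had 353 junction reads, or 3.88% (3.50 to 4.30), against 13.55% of windows, Atrx 184, or 3.24%, against 10.95%, and Cbx5 24, or 0.862%, against 1.505%. Cbx3 had 0 junction reads of 335, but reads shared with its processed pseudogenes were not counted, so this 0 sets no limit on its spliced share.

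The 10 genes had 822 antisense reads, 4.17% of their reads (3.89 to 4.46), against 13.7% over all nuclear genes, and by start positions 10.2% against 25.1%. Cbx1 weighed on the pooled share, which was 7.23% without it. With reads that match several genes counted for each, the share of the 10 genes was 25.1%, mostly through such reads of Ehmt2, and the background was not recomputed that way. By the rule that the interval of the antisense share must lie above 50%, 0 of the 9 genes with at least 50 reads were called, where the background was 15.7% of nuclear genes and 12.4% of nuclear coding genes. No p-value belongs to this count of 0, which comes from intervals of single genes. Cbx5 had the most antisense reads, 343 at 21 positions, or 10.97% (9.90 to 12.1). Atrx had 209, or 3.55%, and Cbx1 57, or 0.623%. Shares were higher in Ehmt1, with 64 antisense reads or 24.2% (19.1 to 29.8), of which 25 lay at 1 position, and in Suv39h1, with 28 or 18.8% (12.9 to 26.0), of which 17 lay at 1 position. Trim28 had 49 or 13.4%, Ehmt2 25 or 10.2%, Cbx3 31 or 8.47%, of which 26 lay at 1 position, and Setdb1 7 or 4.76%. Suv39h2 had 9 antisense reads beside its 10 sense reads. Ehmt2 had 6323 further antisense reads that matched other genes equally well, and with 8 leading bases left out in place of 6 it had 268 antisense and 217 sense reads, which is above 50%. Setdb1, Trim28, Suv39h1, Suv39h2, Cbx1 and Atrx overlap an annotated gene on the other strand, and reads in such overlaps go to the gene in sense orientation.

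The 36-base reads in the table were unevenly spread over these genes. They made up 18.1% of the 36- and 40-base sense reads of the 10 genes (17.5 to 18.65) and 11.2% of those of nuclear coding genes. The share was 30.5% in Cbx1 (29.5 to 31.45), 22.45% in Ehmt1, 21.6% in Ehmt2 and 13.25% in Trim28. It was 6.36% in Cbx5, 5.935% in Atrx and 6.27% in Cbx3. In Cbx1, the 50-base window at the start codon held 80.9% of the 36-base and 66.7% of the 40-base reads. The sources used here do not say which libraries had which length, and the part of read length in the levels was not tested.

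The bases just downstream of the reads had a common composition, a pattern chosen for description after the values had been seen. AGA stood at bases 7 to 9 downstream of the start for 35.4% of the sense reads of the 10 genes (34.7 to 36.1) and for 31.6% of those of all nuclear genes. By start positions the shares were 19.7% and 21.1%, whereas AGA stood there for 2.49% of all transcript positions of the nuclear coding genes with at least 50 sense reads. The shares in the 10 genes were close to those of the whole table. By gene the share of reads was 53.3% in Trim28, 50% in Setdb1, 37.3% in Atrx, 36.8% in Cbx1, 28.6% in Cbx5, 28.1% in Suv39h1, 24.2% in Cbx3, 23.4% in Ehmt1 and 13.3% in Ehmt2, and Suv39h2 had 0 of 10. AGA lay at 4.97% of coding positions in Cbx5, 4.76% in Cbx1, 4.68% in Atrx and 4.24% in Cbx3, and at 1.62% to 2.85% in the other 6 genes. Purines made up 65.3% of the coding sequence of Cbx5, 63.4% of that of Cbx1, 62.1% of that of Cbx3 and 59.7% of that of Atrx, and 50.5% to 55.2% in the others. Of the 4 genes with the most purines, Cbx1, Cbx5 and Atrx were also the 3 with most reads of 1 gene only, and Cbx3 had 335 such reads. With reads of several genes counted for each, Setdb1 had 4565 sense reads, Cbx5 2992 and Cbx3 1181. The part of base composition in the levels was not tested.

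**Figure D4:**
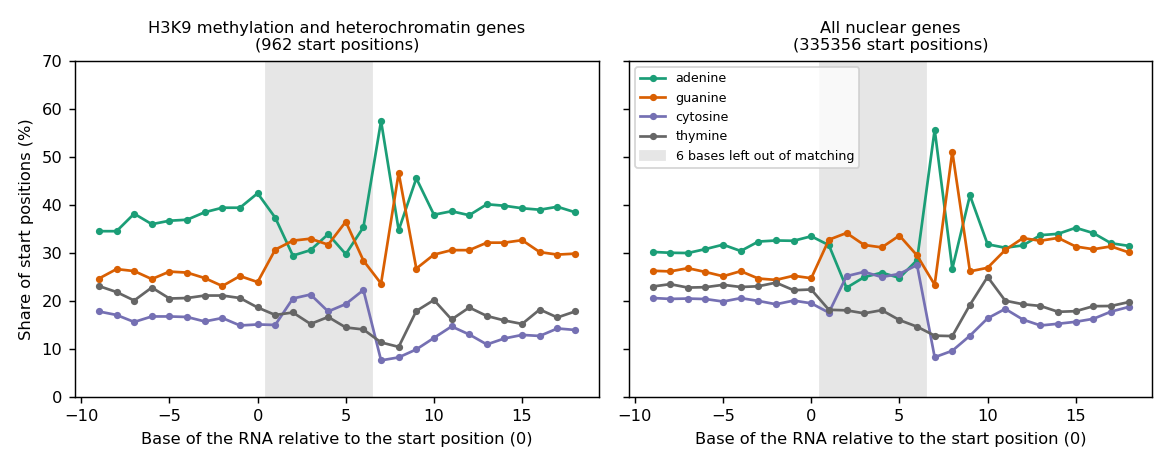
Share of start positions (%) with each base, from 9 bases upstream to 18 bases downstream of the start in the RNA, for the 10 genes at the left and all nuclear genes at the right. The grey band marks the 6 bases left out of matching. Adenine at base 7 stands at 57.5% in the 10 genes and 55.7% in all nuclear genes, and guanine at base 8 at 46.7% and 51.1%.

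Other genes of the pathway were read from lists of 46 symbols, of which 45 are annotated. Of these, 34 had at least 50 sense reads. The median level over all 45 annotated genes, including those with fewer reads, was 0.642 RPKM. Among HP1 partners and genes of heterochromatin upkeep, Chd4, the remodeller of the NuRD complex, had 12104 sense reads, of which 3979 lay at 1 position. Uhrf1, which reads H3K9 methylation in the upkeep of DNA methylation, had 538, the lamin B receptor gene Lbr 300 and Hp1bp3 299. Of the H3K9 demethylases, Jmjd1c had 1290, Kdm1a 1256, Kdm3b 1017 and Kdm4c 429. Of the partners of Setdb1 and Trim28, the remodeller gene Smarcad1 had 2104, the HUSH complex genes Fam208a and Mphosph8 had 601 and 494, and Atf7ip, whose protein stabilises Setdb1, had 311. Of the partners of Ehmt1 and Ehmt2, Zfp462 had 1253, Zfp644 270, Cdyl 50 and Wiz 31. Of the partners of Atrx and the histone H3.3 genes, H3f3b had 396, Daxx 82, Asf1a 59 and Hira 50. The coding windows of 34 bases that match no other gene made up 9.88% in Hira, 36% in H3f3b and 57.9% in Uhrf1. The counts of these genes are therefore uncertain. Of the other methyltransferase genes, Prdm2 had 284 sense reads and a level of 1.21 RPKM, while Mecom had 50, Setdb2 47 and Prdm16 29 sense reads.

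An antisense share above 50% was called for 3 of the 37 genes of these lists with at least 50 reads, where the background was 15.7% of nuclear genes. Morc2a, an ATPase that works with the HUSH complex, had 3481 antisense and 303 sense reads, and 1872 of the antisense reads lay at 1 position. Lbr had 434 antisense and 300 sense reads, with 246 antisense reads at 1 position, and Wiz had 63 antisense and 31 sense reads.

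**Figure D5:**
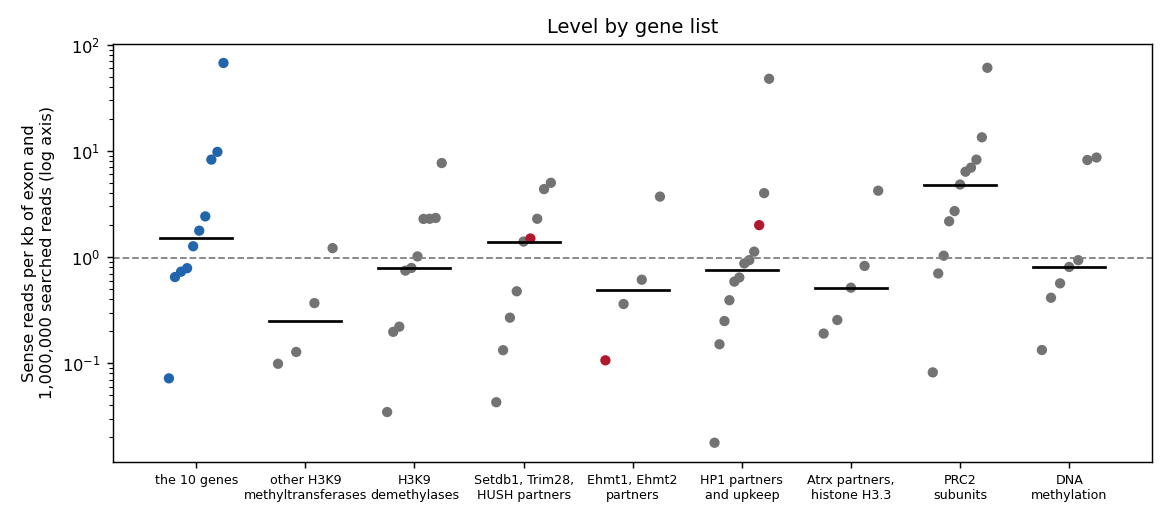
Level of each gene (RPKM, log axis) in the 10 genes, at the left, in 6 lists of other heterochromatin genes and in 2 compared lists. Bars are list medians, the dashed line is the median of nuclear coding genes with at least 50 sense reads, red points are genes called above 50% antisense, and genes with 0 reads are not drawn. The 10 genes span 0.0719 to 67.5 RPKM around a median of 1.52, and the PRC2 subunits have a median of 4.825.

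The 2 other groups of chromatin genes set beside them were the PRC2 subunits and the DNA methylation genes. The median level was 1.52 RPKM in the 10 genes, 4.825 RPKM in 11 PRC2 genes and 0.807 RPKM in 7 DNA methylation genes. Per length, Cbx1 had a level of 67.5 RPKM, Ezh2 60.8 RPKM and Tet1 8.21 RPKM. In sense reads, Ezh2 had 12795, Jarid2 1478, Suz12 1291 and Rbbp7 1234 among the PRC2 genes, and Tet1 had 4002, Dnmt1 2016, Tet2 497 and Dnmt3a 217 among the DNA methylation genes. These differences have no test, since the genes of a list are not replicates.

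Of 31529044 searched reads, 36.06% were assigned to 1 gene, 11.35% to several and 52.6% matched no transcript. All 8 stem cell markers had reads, from 37 in Nanog to 66761 in Lefty2, with 429 in Pou5f1. The 5 fibroblast genes had reads too, from 327 in Thy1 to 5268 in Postn, and their part in the levels above was not tested. In such bulk RNA, fewer cells of a type and less RNA per cell cannot be told apart.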

How the data were processed

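The authors' deposited table holds a read count for each of 6540936 distinct sequences, with no header. The sources used here give neither the filtering of reads nor the aligner. Build mm9 is named in the submitters' processing notes, and coordinates printed here are GRCm38. The table was treated as 1 pool, without a test between groups. Reads of at least 26 bases had 6 leading bases dropped and were matched with bwa 0.7.19 to the GENCODE M21 transcripts, with up to 2 mismatches and no gaps. The leading bases were dropped with their mismatch rates known. A read was counted when its best placements lay on 1 gene. On 10000 simulated reads of the 10 genes, 95.5% returned to their own gene and strand and 0.39% went elsewhere. From the deposited counts RPKM was computed, and scipy 1.17.1 gave exact 95% intervals (Poisson for counts, Clopper-Pearson for shares). The reference transcript is the coding transcript with the longest coding sequence. The cells carry M. castaneus sequence in part, so strain differences can use up mismatches. The genes and lists were chosen with earlier results of these data known. Named genes are the 10, the 4 with most sense reads of each other list and all called above 50% antisense. Alternatives varied read counting, mismatches, uniqueness, read length, leading bases and minima.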

Additional observations from a re-analysis of the deposited data

How the results depend on the processing

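No paired analysis was possible because the table ties no count to a library. The search of introns was not run, and RPKM cannot be formed from start positions. With each start position counted once, 3 of the 10 genes reached 50, the antisense share was 10.24%, the coding share 77.8%, the junction share 8.921%, with 1 read standing for each position, and the AGA share 19.73%. With each distinct sequence counted once, the median was 2.277 RPKM, the antisense share 3.224%, the coding share 86.94%, the highest position's share 13.43%, the junction share 5.204% and the AGA share 31.79%. With no mismatch the antisense share was 3.56%. With all placements the median was 5.258 RPKM, the antisense share 25.08%, the coding share 66.85%, and 1 gene, Ehmt2, was called above 50% antisense. With 8 leading bases dropped the antisense share was 6.336%, the junction share 4.208%, and 1 gene, Ehmt2, was called. The 36-base reads alone gave 3 genes with 50 reads, a median of 1.06 RPKM, and antisense, coding and junction shares of 2.688%, 84.12% and 9.502%. The 40-base reads alone gave 4.626%, 87.29% and 3.913% for these, and an AGA share of 36.86%. Reads of at least 30 matched bases gave a coding share of 86.72% and an AGA share of 36.54%. Leaving out 1 gene was chosen after the data had been seen. Without Cbx1 the median was 1.265 RPKM and the antisense, coding, junction and AGA shares were 7.234%, 83.79%, 5.556% and 34.14%. Without Atrx the median was also 1.265 RPKM, and the coding, junction and AGA shares were 84.04%, 5.403% and 34.58%. The cause of these shifts was not tested. Depth limits Suv39h2, with 10 sense reads, most.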
